A study of Mus musculus with 23 samples.

Results

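The 10 genes described here encode potassium channel subunits that carry or shape repolarizing current in the heart: Kcna5, Kcnip2, Kcnd2, Kcnd3, Kcnj2, Kcnj3, Kcnj5, Kcnk3, Kcnq1 and Kcnh2. They were chosen by name, for their function, from 55487 gene identifiers, with earlier results of these data known. Counts and medians over the 10 are therefore descriptions of this list. Each gene was found in the files and passed the count filter. Potassium leaves the heart muscle cell through these channels, which ends the action potential and holds the resting membrane negative. Kcnd2 and Kcnd3 form the pore of the fast transient outward channel, with Kcnip2 as its accessory subunit, and Kcna5 forms a slowly inactivating channel that is prominent in the rapidly repolarizing mouse ventricle. Kcnj2 carries the inward rectifier that sets the resting potential, Kcnj3 and Kcnj5 together form the channel opened by acetylcholine, Kcnk3 is a background leak channel, and Kcnq1 and Kcnh2 form the slow and the rapid delayed rectifier.

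Poly-A RNA of hearts was measured in 23 libraries from wild-type female C57BL/6J mice, an inbred strain, aged 10 weeks. The sample titles give the tissue as heart and do not say which chambers were taken. The treated groups were hearts taken on day 1 (3 libraries) and on day 7 (4 libraries) after 300 mg/kg isoproterenol (ISO), a beta-adrenergic agonist, and on day 1 and day 7 (4 libraries each) after 2.5 mg/kg lipopolysaccharide (LPS), a bacterial cell wall component sensed by Toll-like receptors. Each arm had its own untreated baseline of 4 libraries, so that neither baseline received an agent. Nothing in the labels says which hearts or days were processed together, and p-values measure the spread between these libraries.

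Libraries held 20910394 to 30368985 estimated reads, and a member had 124 to 13107 reads in a library. Cardiomyocyte markers were abundant in each library, with the 10 marker genes summing to 38440 TPM or more, where TPM is a level per transcript length, scaled to a common library total. Of the atrial markers, Sln was at most 0.097 TPM, Bmp10 at most 0.011 TPM and Myl7 at most 1.38 TPM in 22 libraries, while ISO day 1 replicate 3 had 1.46 TPM of Sln, 21.6 TPM of Myl7 and 19.3 TPM of Myl4. Nppa, an atrial gene that stressed ventricle also uses, was raised in all 3 ISO day 1 libraries, at 230.0, 322 and 217 TPM, against 113 to 145 TPM at ISO baseline, and reached 367 TPM in ISO day 7 replicate 3. The LPS day 1 libraries stood apart in pairs: over all genes the chi-square per degree of freedom was 10.6 to 13.3 between replicates 1 and 2 and between replicates 3 and 4, and 30.5 to 45.6 across these pairs. ISO day 7 replicate 3 had the highest sum of fibroblast markers (532 TPM) and of leukocyte markers (173 TPM) of the ISO libraries. Results without these libraries, or within each LPS day 1 pair, are given beside the main ones.

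In the 8 untreated hearts the order of levels, compared per length in TPM, was led by the leak channel Kcnk3, with a median of 128 TPM (115 to 138). Kcnip2 followed with a median of 71.4 TPM (60.8 to 81.4) and Kcnh2 with 41.5 TPM (36.1 to 51.4). Kcnj5 (median 19.1 TPM) and Kcnj3 (18.9 TPM) did not differ beyond their spread, since Kcnj5 was the higher in 3 of 8 libraries. Kcnq1 had a median of 15.7 TPM and lay above Kcna5, at 12.9 TPM, in 7 of 8 libraries. Lower still were Kcnj2 with a median of 8.57 TPM, Kcnd2 with 7.69 TPM and Kcnd3 with 3.18 TPM (2.8 to 4.21), and these neighbours kept their order in 8 of 8 libraries. The accessory Kcnip2 transcript was thus more abundant per length than its pore-forming partners Kcnd2 and Kcnd3.

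**Figure D1:**
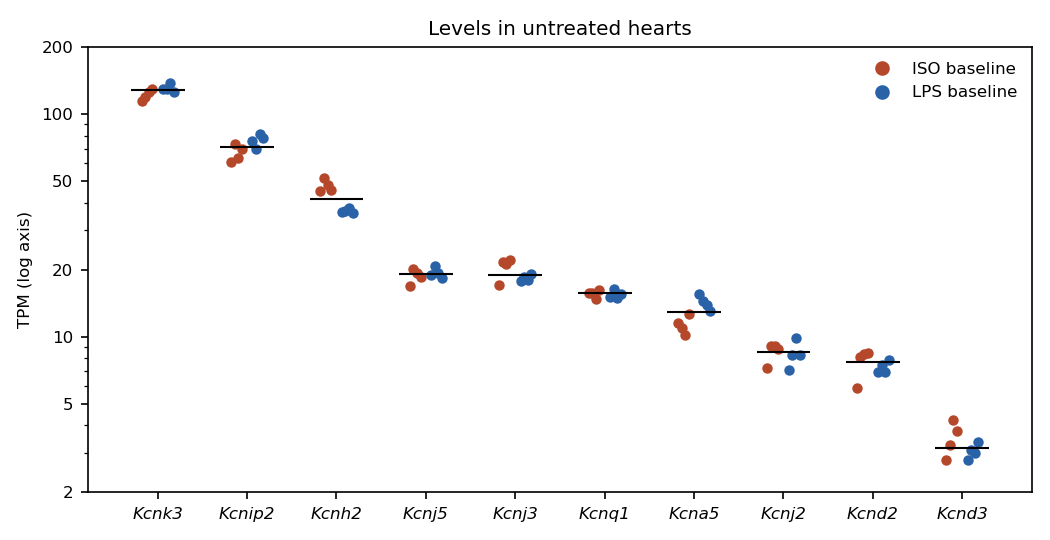
TPM of each gene (log axis) in the 4 ISO baseline and 4 LPS baseline hearts, 1 point per library, with a bar at the median of the 8. Medians run from 128 TPM for Kcnk3 at the left to 3.18 TPM for Kcnd3 at the right.

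Several genes share exon bases with a gene on the opposite strand in the GENCODE M21 annotation, and the strand setting of the counting is not given in the sources used here, so reads of such partners cannot be told apart. Kcnj3 (chromosome 2, 55435970 to 55598145, mm10) shared 31.1% of its exon bases with the lincRNA Gm26794, Kcnk3 (chromosome 5, 30588170 to 30625271) shared 5.76% with the processed transcript Gm9899, Kcnq1 (chromosome 7, 143106362 to 143427042) shared 2.96% with its antisense gene Kcnq1ot1, and Kcnd3 (chromosome 3, 105452330 to 105674002) shared 1.72% with Kcnd3os. No exon overlap was found for Kcna5 (chromosome 6, 126532551 to 126535412), Kcnip2 (chromosome 19, 45791839 to 45816061), Kcnd2 (chromosome 6, 21215503 to 21729805), Kcnj2 (chromosome 11, 111066164 to 111076821), Kcnj5 (chromosome 9, 32314707 to 32344350) or Kcnh2 (chromosome 5, 24319589 to 24351604). All 10 are annotated as protein-coding. Of the 31-base words of its transcripts, Kcna5 shared 4.31% with its neighbour in the family Kcna6, and Kcnip2 and Kcnd2 shared 0 with any other gene.

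The first comparisons ask how each channel gene stood 1 day after each agent. All 10 genes fell at ISO day 1 relative to ISO baseline, by log2 changes of -2.72 to -0.31, and all 10 fell at LPS day 1 relative to LPS baseline, by -2.16 to -0.29 (edgeR quasi-likelihood test, adjusted p under 0.05). The falls were large for Kcnj3, Kcnip2 and Kcnd2 after both agents. They were large for Kcnq1 mainly after ISO, and for Kcnk3 and Kcnj5 mainly after LPS. That of Kcnh2 was large after ISO (-1.78). At LPS day 1 it was -1.64 with replicates 1 and 2 alone and -0.40 with replicates 3 and 4 alone. Day 1 was a time of broad change: of 15732 genes tested, 32.8% were called lower and 32.9% higher at ISO day 1, and 33.0% lower and 33.2% higher at LPS day 1. The median log2 change of the 10 genes was -1.18 at ISO day 1, beside -0.01 over all genes, and -1.06 at LPS day 1, beside 0.00 over all genes. In bulk tissue, fewer cells of a type and less RNA per cell cannot be told apart.

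**Figure D2:**
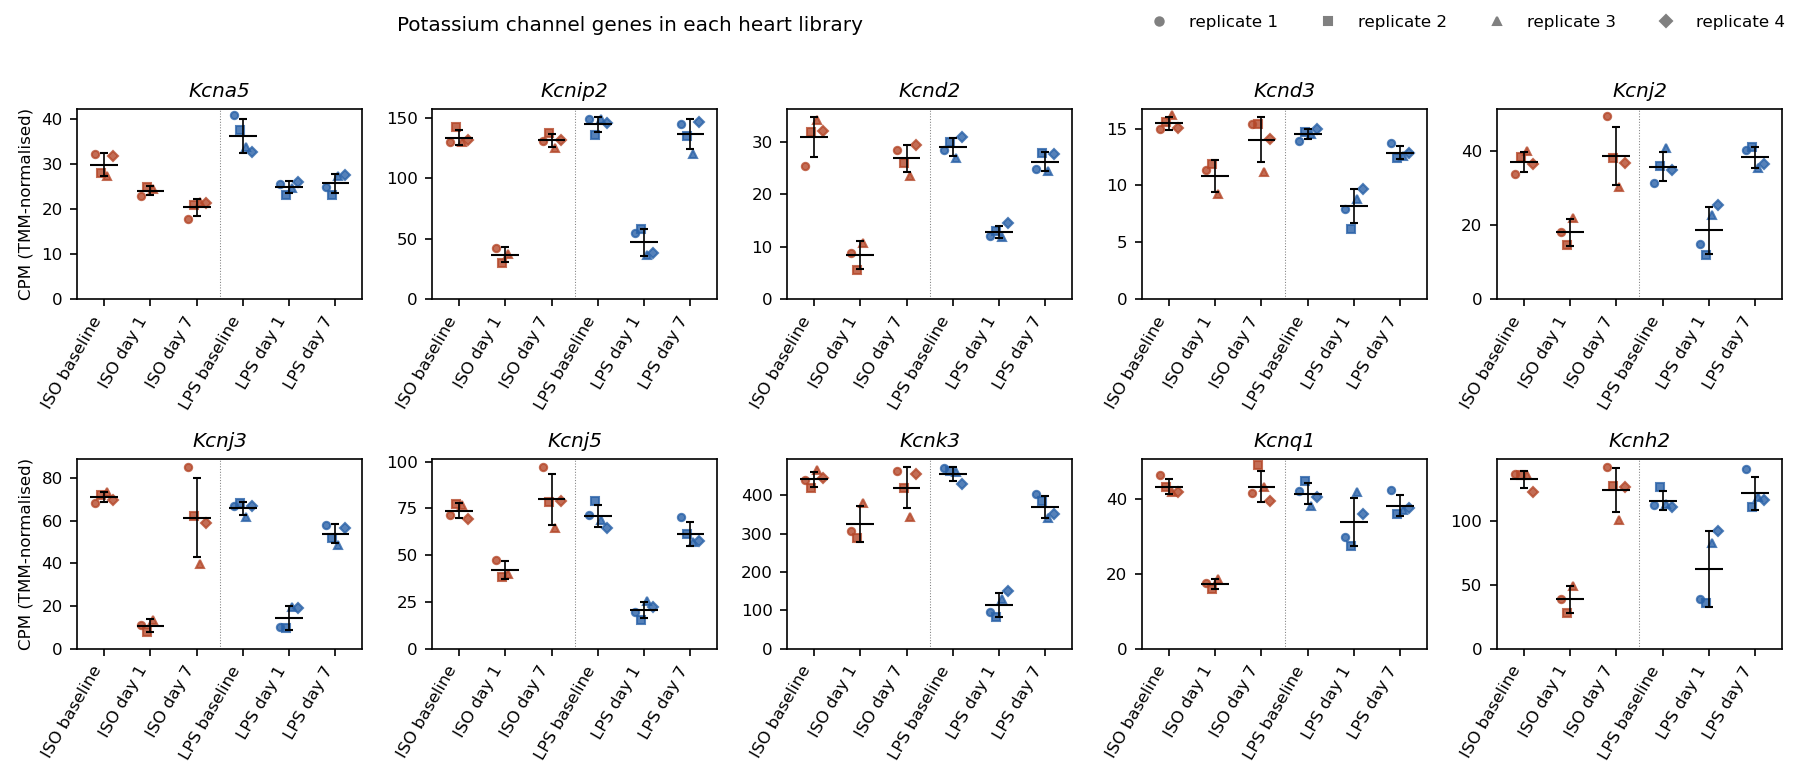
CPM (reads scaled to a common library size with TMM factors) of each gene in every library, in the order baseline, day 1 and day 7 for the ISO and then the LPS arm, with the mean (bar) and SD (whisker) of each group and a marker shape for each replicate number. The mean is lowest at day 1 in both arms for 9 genes, while Kcna5 in the ISO arm has its lowest mean at day 7.

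Among the genes of the fast transient outward channel, the accessory Kcnip2 stood at 42.5, 30.2 and 37.1 CPM (reads scaled to a common library size) in ISO day 1 hearts, against 130, 143, 129.9 and 132 CPM in ISO baseline hearts. That was 3.66-fold lower (log2 change -1.87, SE 0.13, adjusted p = 3.81e-11), with a wide gap between the groups. In LPS day 1 hearts it stood at 54.8, 58.2, 36.8 and 38.4 CPM, against 149, 136, 149 and 146 CPM in LPS baseline hearts, 3.09-fold lower (log2 change -1.63, SE 0.12, adjusted p = 4.27e-11). Kcnip2 was the only one of the 10 genes that was lower in both of replicates 3 and 4 of LPS day 1 than in both of replicates 1 and 2.

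The principal pore gene Kcnd2 stood at 8.8, 5.45 and 10.7 CPM in ISO day 1 hearts, against 25.3, 31.9, 34.1 and 32.1 CPM in ISO baseline hearts. Its level was 3.73-fold lower (log2 change -1.90, SE 0.15, adjusted p = 2.42e-10). After LPS it stood at 12, 13, 11.8 and 14.4 CPM at day 1, against 28.4, 29.9, 26.8 and 30.8 CPM at LPS baseline, 2.27-fold lower (log2 change -1.18, SE 0.13, adjusted p = 4.22e-08). The groups did not overlap in either arm, and the 4 LPS day 1 libraries lay close together.

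Kcnd3, the other pore gene of that channel, moved less. Its level was 11.4, 11.9 and 9.25 CPM at ISO day 1, against 15, 15.6, 16.2 and 15.1 CPM at ISO baseline (log2 change -0.51, SE 0.12, adjusted p = 0.000659). After LPS it was 7.96, 6.18, 8.77 and 9.71 CPM at day 1, against 13.9, 14.7, 14.5 and 15 CPM at LPS baseline (log2 change -0.82, SE 0.11, adjusted p = 8.28e-07). The groups stood apart in both arms, but the ISO call was lost on TPM, where log2(TPM + 0.1) gave -0.44 with an adjusted p of 0.172. The effective length that the authors' tool assigned to Kcnd3 ranged from 2484 bases in LPS day 1 replicate 1 to 6089 bases in replicate 2, so that TPM and counts of this gene can differ.

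Sequence upstream of the transcript start was available from RefSeq (GRCm38.p6) for 8 of the 10 genes, and not for Kcnk3 and Kcnq1. The 250 bases before the start are printed for Kcnip2, Kcnd2 and Kcnh2, which fell together at ISO day 1, and for Kcna5, which had the smallest change there. None of these windows holds annotated exon bases, though that of Kcnh2 lies inside the annotated gene, before an internal start. Capitals mark the CACCC box, read on either strand as CACCC or GGGTG, a motif bound by Krüppel-like factors.
Kcnip2 chr19:45816064-45816313, minus strand: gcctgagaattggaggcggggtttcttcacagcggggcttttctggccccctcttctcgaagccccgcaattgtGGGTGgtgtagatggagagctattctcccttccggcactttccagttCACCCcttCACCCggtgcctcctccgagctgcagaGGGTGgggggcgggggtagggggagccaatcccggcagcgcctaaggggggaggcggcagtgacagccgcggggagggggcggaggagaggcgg
Kcnd2 chr6:21215096-21215345, plus strand: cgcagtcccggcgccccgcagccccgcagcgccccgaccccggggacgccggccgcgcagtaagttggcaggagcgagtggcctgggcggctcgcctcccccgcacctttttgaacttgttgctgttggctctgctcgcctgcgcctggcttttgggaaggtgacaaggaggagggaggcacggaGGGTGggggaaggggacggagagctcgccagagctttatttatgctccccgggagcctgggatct
Kcnh2 chr5:24329592-24329841, minus strand: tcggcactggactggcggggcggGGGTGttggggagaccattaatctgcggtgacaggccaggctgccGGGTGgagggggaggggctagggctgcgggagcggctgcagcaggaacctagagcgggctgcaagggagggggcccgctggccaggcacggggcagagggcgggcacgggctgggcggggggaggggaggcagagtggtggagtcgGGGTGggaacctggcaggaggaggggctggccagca
Kcna5 chr6:126535556-126535805, minus strand: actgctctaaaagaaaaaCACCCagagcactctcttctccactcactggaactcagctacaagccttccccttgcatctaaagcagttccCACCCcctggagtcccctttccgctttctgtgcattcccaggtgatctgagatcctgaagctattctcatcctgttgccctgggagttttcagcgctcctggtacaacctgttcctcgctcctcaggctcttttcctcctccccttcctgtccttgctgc
The box occurred 4 times in the Kcnip2 window, 1 time in that of Kcnd2, 3 times in that of Kcnh2 and 2 times in that of Kcna5, and 52% of 32851 RefSeq windows of this length held it at least once. The Kcnh2 window had 73.6% G and C, that of Kcnd2 68.8%, that of Kcnip2 66.8% and that of Kcna5 53.2%. No match was found in these 4 windows for the cyclic AMP response element core TGACG (17.8% of all windows), the AP-1 site TGANTCA (6.75%), the NF-kB consensus (7.25%), the E-box CACGTG (6.02%), AGATAA as a GATA site (9.99%) or TATAAA (12.4%), each read on both strands. The printed matches do not overlap one another. Of the windows not printed, that of Kcnj3, the gene with the largest fall, held 0 of these motifs, and all its 250 bases are annotated exon bases. The CACCC box occurred 2 times in the Kcnd3 window and 1 time each in those of Kcnj2 and Kcnj5, and the Kcnj2 window also held 1 E-box. A match describes the letters of these windows, and no match says nothing beyond them.

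Kcna5, which encodes a slowly inactivating delayed rectifier, had the smallest fall of the 10 at ISO day 1. It stood at 22.9, 24.9 and 24.4 CPM in ISO day 1 hearts, against 32.2, 28.1, 27.3 and 31.8 CPM in ISO baseline hearts (log2 change -0.31, SE 0.09, adjusted p = 0.00375). In LPS day 1 hearts the values were 25.5, 23.1, 24.7 and 26.1 CPM, against 41, 37.5, 33.9 and 32.6 CPM at LPS baseline (log2 change -0.54, SE 0.08, adjusted p = 3.24e-06). Both day 1 groups lay wholly below their baselines, by a narrow margin in the ISO arm. The LPS baseline values themselves spread more than those of LPS day 1.

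Of the inward rectifiers, Kcnj2 stood at 18, 14.5 and 21.8 CPM in ISO day 1 hearts, against 33.8, 38.5, 40 and 36.4 CPM in ISO baseline hearts (log2 change -1.04, SE 0.19, adjusted p = 5.73e-05). After LPS, Kcnj2 stood at 14.9, 11.8, 22.6 and 25.3 CPM at day 1, against 31.5, 36.1, 40.8 and 34.9 CPM at LPS baseline (log2 change -0.93, SE 0.17, adjusted p = 6.25e-05). About the same fold was seen after both agents, and in the LPS arm replicates 1 and 2 were the lowest.

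Kcnj3 had the largest fall of the 10 genes after each agent. In ISO day 1 hearts it stood at 11.3, 7.66 and 13.7 CPM, against 68.4, 72, 73.6 and 69.9 CPM in ISO baseline hearts, 6.57-fold lower (log2 change -2.72, SE 0.24, adjusted p = 1.94e-09). In LPS day 1 hearts it stood at 10, 9.56, 19.5 and 19.3 CPM, against 66.7, 68.2, 61.6 and 66.7 CPM in LPS baseline hearts, 4.48-fold lower (log2 change -2.16, SE 0.21, adjusted p = 6.39e-09). Kcnj3 is mainly an atrial gene in the textbook view, and its highest ISO day 1 value was in replicate 3, the library with the raised Sln, Myl7 and Myl4. That library was also the highest ISO day 1 library for Kcnd2, Kcnj2, Kcnk3, Kcnq1 and Kcnh2, or 6 of the 10 genes in all, but not for Kcnj5. It also had the highest cardiomyocyte marker sum of the ISO day 1 libraries, 48130 TPM against 42698 and 42733 TPM. Its neutrophil marker sum was the lowest of them, 6.89 TPM against 14.9 and 17.6 TPM. The part of atrial tissue or of other cells in these values was not tested. Without that replicate all 10 genes were still called at ISO day 1, with log2 changes of -2.92 to -0.32, that of Kcnj3 being -2.92. With it 32.8% of all genes tested were called lower, and the share without it is not given here.

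Its partner Kcnj5 moved differently after the 2 agents. Its level was 47.3, 38.3 and 40 CPM at ISO day 1, against 71.5, 77.3, 76.9 and 69.2 CPM at ISO baseline, 1.76-fold lower (log2 change -0.82, SE 0.13, adjusted p = 1.05e-05). The LPS day 1 level was 19.9, 15.5, 25.4 and 22.6 CPM, against 71.5, 78.7, 68.6 and 64.8 CPM at LPS baseline, 3.39-fold lower (log2 change -1.76, SE 0.13, adjusted p = 3.06e-11). No LPS day 1 library reached the lowest ISO day 1 library.

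The leak channel Kcnk3, the most abundant of the 10, stood at 306, 290.2 and 379 CPM in ISO day 1 hearts, against 439, 419, 465 and 445 CPM in ISO baseline hearts, 1.36-fold lower (log2 change -0.44, SE 0.14, adjusted p = 0.00996). Without ISO day 1 replicate 2 that call was lost, at a log2 change of -0.37 and an adjusted p of 0.0598. At LPS day 1 the values were 97, 82.2, 131 and 151 CPM, against 470.3, 464, 460.3 and 429.6 CPM at LPS baseline, 3.94-fold lower (log2 change -1.98, SE 0.14, adjusted p = 2.05e-11). The overlapping antisense gene Gm9899 had 60 to 219 reads at LPS day 1, beside 1650 to 4425 of Kcnk3, and 462 to 613 at LPS baseline, beside 10864 to 12988 of Kcnk3. Its reads were 3.14% to 4.95% of those of Kcnk3 in every group.

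Of the delayed rectifiers, Kcnq1 stood at 17.6, 16 and 18.6 CPM in ISO day 1 hearts, against 46.4, 43.2, 42 and 41.8 CPM in ISO baseline hearts, 2.49-fold lower (log2 change -1.32, SE 0.11, adjusted p = 7.13e-10). The 3 ISO day 1 values lay close together and far below the baseline. At LPS day 1 it stood at 30, 27.5, 42 and 35.9 CPM, against 42.1, 44.8, 38.1 and 40.6 CPM at LPS baseline, 1.22-fold lower (log2 change -0.29, SE 0.10, adjusted p = 0.0127). Replicate 3 of LPS day 1 lay within the baseline range, and the call was lost without LPS day 1 replicate 1 (adjusted p = 0.0554) or replicate 2 (adjusted p = 0.0617). With replicates 3 and 4 alone the log2 change was -0.09 (adjusted p = 0.417).

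Kcnh2 stood at 38.9, 27.8 and 49.5 CPM in ISO day 1 hearts, against 137, 136, 136 and 123 CPM in ISO baseline hearts, 3.44-fold lower (log2 change -1.78, SE 0.25, adjusted p = 1.4e-06). Its LPS day 1 values were 38.8, 35.8, 83.2 and 92.7 CPM, against 113, 127, 114 and 111 CPM at LPS baseline, 1.85-fold lower (log2 change -0.89, SE 0.22, adjusted p = 0.00101). The LPS mean describes none of its libraries: replicates 1 and 2 were at the level of the ISO day 1 hearts, and replicates 3 and 4 were nearer to baseline. Fitted alone, replicates 1 and 2 gave a log2 change of -1.64 (adjusted p = 1.47e-08) and replicates 3 and 4 gave -0.40 (adjusted p = 0.0268).

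The pairs of LPS day 1 libraries also differed in size of change for other genes. With replicates 1 and 2 alone all 10 genes were called, and with replicates 3 and 4 alone 9 were, Kcnq1 being the one that was not. With all 4 libraries 33.0% of all genes tested were called lower, and the share in the fits of each pair is not given here. Kcnj2 gave a log2 change of -1.41 with replicates 1 and 2 and -0.58 with replicates 3 and 4. Kcnj3 gave -2.74 with the first pair and -1.76 with the second, Kcnk3 -2.35 and -1.69, Kcnj5 -1.99 and -1.56, and Kcnd3 -1.03 and -0.65. Kcnip2 went the other way, at -1.36 with replicates 1 and 2 and -1.95 with replicates 3 and 4, while Kcnd2 (-1.22 and -1.14) and Kcna5 (-0.57 and -0.51) were close in both. The difference between pairs was not itself tested.

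The design also allows a test of whether the change from baseline at day 1 differed between ISO and LPS. It did for 5 of the 10 genes, where 37.6% of all genes tested were called (19.5% higher and 18.2% lower). Kcnk3 fell less after ISO than after LPS (difference of log2 changes, ISO minus LPS, 1.54, SE 0.19, adjusted p = 1.57e-06), and so did Kcnj5 (0.94, SE 0.18, adjusted p = 0.00021). Kcnq1 fell more after ISO (-1.03, SE 0.15, adjusted p = 7.82e-06), as did Kcnd2 (-0.72, SE 0.20, adjusted p = 0.00568) and Kcnh2 (-0.89, SE 0.32, adjusted p = 0.0319). By count 2 of the 10 genes were called higher and 3 lower. These counts are not far from the shares of all genes, so no pattern by type of channel is drawn from them.

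The differences of Kcnk3, Kcnj5, Kcnq1 and Kcnd2 were also called with either pair of LPS day 1 libraries alone. That of Kcnh2 was not: it was -0.14 (adjusted p = 0.617) with LPS day 1 replicates 1 and 2 alone and -1.38 (adjusted p = 1.18e-05) with replicates 3 and 4 alone. It was also lost without ISO day 1 replicate 1 (adjusted p = 0.0586) or 2 (0.117), LPS day 1 replicate 3 (0.076) or 4 (0.0923), or LPS baseline replicate 3 (0.0504) or 4 (0.053). For the other 5 genes the differences were not called, at 0.31 for Kcnd3 (95% interval -0.00 to 0.63), 0.23 for Kcna5 (-0.00 to 0.47), -0.11 for Kcnj2 (-0.61 to 0.40), -0.24 for Kcnip2 (-0.58 to 0.09) and -0.55 for Kcnj3 (-1.16 to 0.06). Of these, Kcnip2 was called with replicates 1 and 2 alone (-0.51, adjusted p = 0.00299), as was Kcnd3 (0.52, adjusted p = 0.0146), and Kcnj3 with replicates 3 and 4 alone (-0.96, adjusted p = 0.00736). Kcnd3 was also called without ISO day 1 replicate 3 (0.42, adjusted p = 0.0492) or LPS day 1 replicate 4 (0.41, adjusted p = 0.045).

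**Figure D3:**
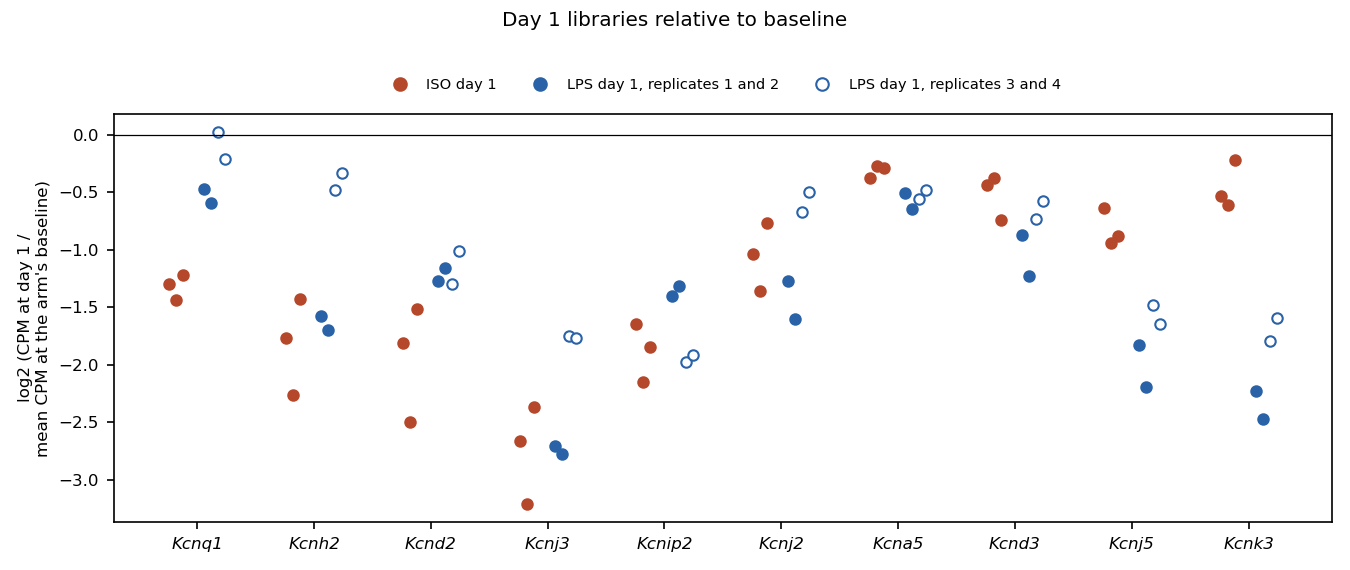
Log2 ratio of each day 1 library to the mean CPM of its arm's baseline, with genes ordered by the ISO minus LPS difference; open points are LPS day 1 replicates 3 and 4. Kcnq1 lies lower in all 3 ISO day 1 libraries than in any LPS day 1 library, and Kcnj5 and Kcnk3 lie higher.

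Markers of heart muscle cells moved with these falls. Of the 10 cardiomyocyte markers, 7 fell at ISO day 1 and their summed level was 42698 to 48130 TPM there, against 55408 to 57390 TPM at ISO baseline. At LPS day 1, 8 of 10 fell and the sum was 38440 to 41827 TPM, against 53209 to 54533 TPM at LPS baseline. None of the 10 markers was at 0, and scaling each library to them moved the median of all genes by 0.34 at ISO day 1 and 0.51 at LPS day 1. On that scale 7 of the 10 channel genes were called at ISO day 1, all lower, where 63.6% of all genes were called in either direction and 2668 of 15732 lower. At LPS day 1 it was 6 of the 10, all lower, where 71.0% were called in either direction and 2086 lower. The genes no longer called were Kcna5 (0.04, adjusted p = 0.774), Kcnd3 (-0.14, 0.433) and Kcnk3 (-0.11, 0.528) at ISO day 1, and Kcna5 (-0.03, 0.824), Kcnd3 (-0.31, 0.0526), Kcnh2 (-0.37, 0.102) and Kcnq1 (0.23, 0.0708) at LPS day 1. Kcnj3 (-2.39 and -1.65), Kcnip2 (-1.52 and -1.12) and Kcnd2 (-1.58 and -0.67) were still called at both ISO day 1 and LPS day 1.

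Other cell types also differed at day 1. Counts of their markers stand beside 33% of all genes called lower and 33% called higher at each day 1. The 6 conduction system markers summed to 1.11 to 1.54 TPM at ISO day 1, against 4.14 to 4.52 TPM at ISO baseline, with 3 of 5 tested lower, and to 2.32 to 3.21 TPM at LPS day 1, against 3.96 to 4.83 TPM at LPS baseline, with 2 of 5 lower and 1 higher. The 7 smooth muscle and pericyte markers, from cells that also use Kcna5 and Kcnk3, summed to 363 to 536 TPM at ISO day 1, against 239 to 332 TPM at ISO baseline, with 3 higher and 2 lower and a median log2 change of -0.17. Their LPS day 1 sums were 176 to 282 TPM, against 278 to 360.2 TPM at LPS baseline, with 5 lower. The 5 atrial markers summed to 233 to 326 TPM at ISO day 1, against 115 to 147 TPM at ISO baseline, and all 3 that could be tested rose: Myl4 (2.13), Myl7 (4.02) and Nppa (1.03). Most of that sum was Nppa, at 230.0, 322 and 217 TPM in the ISO day 1 libraries. The Myl7 rise came from replicate 3, with 0.618, 0.085 and 21.6 TPM at ISO day 1, against 0.256 to 0.736 TPM at ISO baseline. Myl4 stood at 2.88, 3.95 and 19.3 TPM, against 1.62 to 2.27 TPM. The atrial sum at LPS day 1 was 149 to 210.2 TPM, against 127 to 144 TPM at LPS baseline, and edgeR called 0 of 3, with 0 at an unadjusted p under 0.05 and 0 calls by DESeq2 or limma-voom. Of 4 tested neutrophil markers all 4 rose at ISO day 1 and at LPS day 1, and of 4 Schwann cell markers all 4 fell at both. Of 5 endothelial markers 2 rose and 1 fell at each, of 5 fibroblast markers 1 rose and 2 fell at ISO day 1 and 1 rose and 3 fell at LPS day 1, and of 5 leukocyte markers 2 rose and 3 fell at ISO day 1 and 1 rose and 2 fell at LPS day 1. Red cell markers fell in 4 of 5 at ISO day 1. Adipocyte markers summed to at most 0.856 TPM and lung epithelium markers to at most 0.121 TPM in any library. Their part in the values of the channel genes was not tested.

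At day 7 the question is which of these genes still differed from baseline. Kcna5 did, in both arms, and the other 9 genes were not called. In ISO day 7 hearts Kcna5 stood at 17.7, 20.9, 21.6 and 21.3 CPM, against 32.2, 28.1, 27.3 and 31.8 CPM in ISO baseline hearts, 1.47-fold lower (log2 change -0.55, SE 0.08, adjusted p = 0.0115). In LPS day 7 hearts it stood at 24.9, 23.1, 27.3 and 27.5 CPM, against 41, 37.5, 33.9 and 32.6 CPM in LPS baseline hearts, 1.41-fold lower (log2 change -0.50, SE 0.08, adjusted p = 0.000522). All 4 day 7 libraries of each arm lay below all 4 of their baseline. One gene in all, Kcna5 itself, or 0.00636% of the genes tested, was called at ISO day 7, and 3.13% were called lower at LPS day 7.

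The ISO day 7 call was not firm. It was lost without ISO baseline replicate 1 or 4 (adjusted p = 0.108 and 0.103), without ISO day 7 replicate 1 or 2 (0.0892 and 0.0516), and under several other settings given in the closing section, while the log2 change lay between -0.83 and -0.47 in all alternatives run. At LPS day 7 the call was lost on log2(TPM + 0.1), at -0.29 (adjusted p = 0.0947). Kcna5 also stood lower in ISO baseline than in LPS baseline, with no overlap (log2 difference -0.28, SE 0.08, adjusted p = 0.0992), and set against the ISO baseline in place of its own, LPS day 7 was lower by a log2 change of -0.22 (adjusted p = 0.0744). Cardiomyocyte markers summed to 50638 to 56296 TPM at ISO day 7, against 55408 to 57390 TPM at ISO baseline, and to 55883 to 67063 TPM at LPS day 7, against 53209 to 54533 TPM at LPS baseline. At LPS day 7 all 5 leukocyte markers were called higher, with sums of 157 to 196 TPM, against 73.1 to 90.3 TPM at LPS baseline. Smooth muscle and pericyte markers summed to 351 to 409 TPM at LPS day 7, against 278 to 360.2 TPM at LPS baseline, with 2 of 7 called higher. Endothelial markers summed to 275 to 339 TPM, against 216 to 253 TPM, with 2 of 5 called higher. For fibroblast markers the sums were 359 to 378 TPM at LPS day 7 and 249 to 303 TPM at LPS baseline, and edgeR called 0 of 5, with 0 at an unadjusted p under 0.05 and 0 calls by DESeq2 or limma-voom. The part of these cells in the Kcna5 value was not tested.

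**Figure D4:**
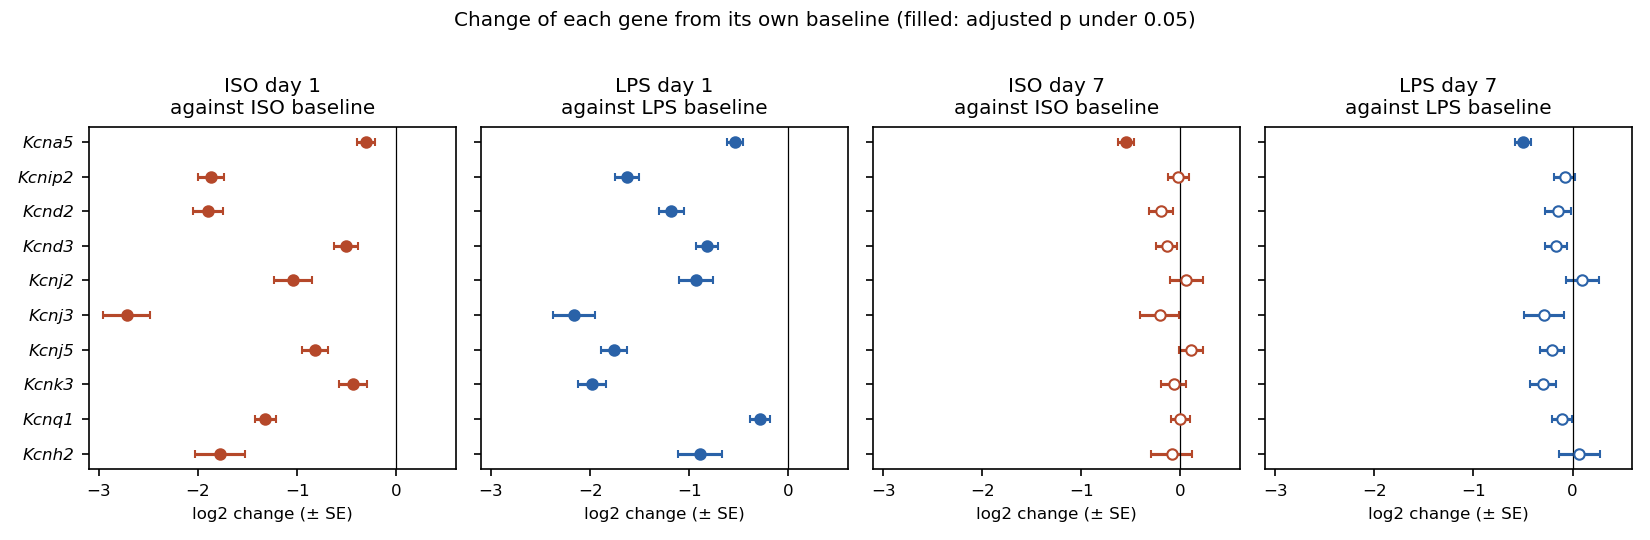
Log2 change of each gene from its own baseline with its SE at ISO day 1, LPS day 1, ISO day 7 and LPS day 7; filled points have an adjusted p under 0.05. All points are filled at day 1, and Kcna5 is the only filled point in either day 7 panel, at -0.55 and -0.50.

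For the other 9 genes the log2 changes lay between -0.21 and 0.11 at ISO day 7 and between -0.30 and 0.10 at LPS day 7. The median of all 10 genes was -0.08 at ISO day 7 and -0.16 at LPS day 7, beside 0.00 over all genes for each. Intervals still allow moderate differences: for Kcnj3 the 95% interval was -0.59 to 0.18 at ISO day 7 and -0.68 to 0.10 at LPS day 7. Kcnk3 at LPS day 7 stood at 403, 386, 342 and 351 CPM, against 470.3, 464, 460.3 and 429.6 CPM at LPS baseline, without overlap but not called (log2 change -0.30, SE 0.13, adjusted p = 0.173). Kcnj3 at LPS day 7 (58.2, 51.8, 48.6 and 56.8 CPM) also lay wholly below LPS baseline, at a log2 change of -0.29 (adjusted p = 0.408), as did Kcnd3, at 12.4 to 13.7 CPM against 13.9 to 15 CPM (-0.17, adjusted p = 0.364). With Kcna5 that makes 4 of the 10 genes, where 10.0% of all genes tested lay wholly below LPS baseline. In TPM the groups overlapped for Kcnk3 (112 to 133 TPM at LPS day 7, 126 to 138 TPM at LPS baseline) and for Kcnj3 (16.1 to 18.3 and 17.8 to 19.2 TPM). Mean Kcnd3 was higher in TPM at LPS day 7 (3.82 TPM) than at LPS baseline (3.07 TPM). Kcna5 stayed apart in TPM, at 10.4 to 12.8 TPM against 13.1 to 15.6 TPM. Kcnk3 and Kcnj3 were called in a fit of these groups alone, Kcnk3 with an adjusted p of 0.00424 and Kcnj3 with 0.00595.

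The ISO day 7 libraries were uneven. In CPM, replicate 3, the library with the highest fibroblast and leukocyte marker sums, was the lowest of the 4 for 8 of the 10 genes, and replicate 1 was the highest for 6. Part of this depended on the scale. In TPM, replicate 3 was the highest for Kcnip2 (71.5 TPM) and not the lowest for Kcnd2 (6.76 TPM) or Kcnd3 (2.81 TPM). Kcnj2, Kcnj3, Kcnj5, Kcnk3 and Kcnh2 were lowest in it on both scales. Kcnj3 stood at 39.6 CPM in replicate 3 and 85 CPM in replicate 1, with 62.1 and 59 CPM in the others. Without replicate 3 its log2 change at ISO day 7 was -0.05 in place of -0.21, the changes of the 9 genes other than Kcna5 lay between -0.15 and 0.20 with none called, and Kcna5 was still called (-0.58, adjusted p = 0.0232). In CPM the exceptions were Kcna5 and Kcnq1, with 21.6 and 43.3 CPM in replicate 3, above 2 or more of the other libraries.

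Set against day 1 of the same arm, day 7 levels were higher for 9 of the 10 genes after ISO and 8 of 10 after LPS, where 33.2% and 33.9% of all genes were called higher. After ISO the differences ran up to 2.51 for Kcnj3 (5.68-fold), with 1.85 for Kcnip2 and 1.70 for Kcnd2. After LPS they ran up to 1.87 for Kcnj3, with 1.68 for Kcnk3 and 1.56 for Kcnj5. Kcna5 was not among them: at ISO day 7 it was lower than at ISO day 1 (log2 difference -0.24, SE 0.09, adjusted p = 0.0196), where 31.9% of all genes were called lower, and at LPS day 7 it was not called against LPS day 1 (0.05, adjusted p = 0.625). That ISO call was lost without ISO day 1 replicate 2 (adjusted p = 0.0708) or 3 (0.0519) or ISO day 7 replicate 1 (0.0786), with library totals (-0.18, adjusted p = 0.152), and on log2(TPM + 0.1) (0.105) and log2(TPM + 1) (0.111). The LPS value depended on the scale: Kcna5 was called higher at LPS day 7 than at LPS day 1 with library totals (0.23, adjusted p = 0.0481), log2(TPM + 0.1) (0.28, 0.0407) and log2(TPM + 1) (0.26, 0.0395), and lower with cardiomyocyte marker totals (-0.39, 0.00417). Kcnq1 at LPS day 7 was not called against LPS day 1 (0.17, adjusted p = 0.121), but was without LPS day 1 replicate 3 (0.29, adjusted p = 0.0063) and with LPS day 1 replicates 1 and 2 alone (0.41, adjusted p = 0.000445). It was also called higher with library totals (0.35, adjusted p = 0.0145), log2(TPM + 0.1) (0.44, 0.00961) and log2(TPM + 1) (0.42, 0.00978), and lower with cardiomyocyte marker totals (-0.28, 0.0361).

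The smaller ISO differences were fragile. Kcnk3 (0.37, adjusted p = 0.0277) was no longer called without ISO day 1 replicate 1 (adjusted p = 0.0945) or 2 (0.128) or ISO day 7 replicate 1 (0.071) or 4 (0.0676), and Kcnd3 (0.37, adjusted p = 0.00882) without ISO day 1 replicate 3 (0.0735). With cardiomyocyte marker totals neither was called, Kcnk3 at 0.11 (adjusted p = 0.493) and Kcnd3 at 0.08 (0.666), and on log2(TPM + 0.1) Kcnk3 had an adjusted p of 0.0749 and Kcnd3 one of 0.448. Kcnd3 was also lost with effective-length offsets (0.28, adjusted p = 0.336), and after LPS it was 0.21 with cardiomyocyte marker totals (adjusted p = 0.187). The day 7 and day 1 comparisons of an arm share their baseline or day 1 libraries, so they are not independent of one another. The difference between the agents at day 7 was called for 0 of 10 genes by edgeR, where 0.458% of all genes were, with 0 at an unadjusted p under 0.05 and 0 calls by DESeq2 or limma-voom, and ranged from -0.16 for Kcnh2 to 0.32 for Kcnj5, Kcnj5 with an unadjusted p of 0.0688.

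Ratios within a library were compared for channel partners. They do not depend on library scaling, but in TPM they depend on the effective length of each gene. In these 12 comparisons 3 libraries against 4 cannot give an exact two-sided p below 0.05714, nor 4 against 4 one below 0.02857, and none passed after adjustment (smallest adjusted p = 0.1371). The Kcnd2 to Kcnd3 ratio in TPM had a geometric mean of 0.803 at ISO day 1, against 2.19 at ISO baseline (log2 difference -1.45, exact permutation p = 0.05714), and the groups did not overlap. For LPS the same ratio was 1.61 at day 1, against 2.39 at LPS baseline, with overlap. It was 0.835 in LPS day 1 replicate 1, where Kcnd3 had an effective length of 2484 bases. In replicate 2, with 6089 bases, it was 2.86. The next ratio also holds the TPM of Kcnd3. The ratio of Kcnip2 to the sum of Kcnd2 and Kcnd3 was 4.03 at ISO day 1, against 6 at ISO baseline (log2 difference -0.58), and 4.36 at LPS day 1, against 7.34 at LPS baseline (log2 difference -0.75). The Kcnj3 to Kcnj5 ratio was 0.336 at ISO day 1, against 1.09 at ISO baseline (log2 difference -1.70, exact permutation p = 0.05714), and 0.8 at LPS day 1, against 0.951 at LPS baseline. At day 7 the 6 ratios lay within 0.26 of baseline on the log2 scale.

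**Figure D5:**
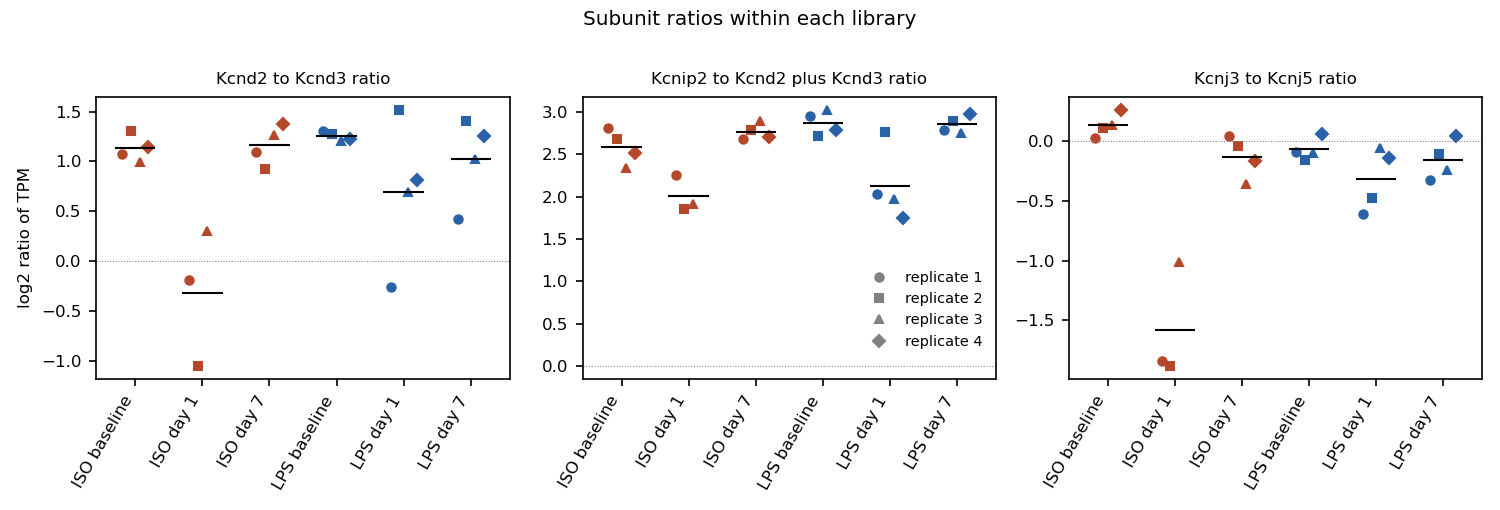
Log2 ratio of TPM within each library for Kcnd2 to Kcnd3, Kcnip2 to the sum of both, and Kcnj3 to Kcnj5, with a bar at the group mean and a marker shape for each replicate number. The ISO day 1 libraries lie below all ISO baseline libraries in each panel.

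Between the untreated arms, ISO baseline against LPS baseline, edgeR called 0 of the 10 genes, where 1.21% of all genes were called. Unadjusted, 1 of the 10 had a p under 0.05, Kcna5 with 0.00211, and DESeq2 called it (adjusted p = 0.0481) while limma-voom called 0. Kcnj3 also did not overlap between the arms in CPM, at 68.4 to 73.6 CPM in ISO baseline and 61.6 to 68.2 CPM in LPS baseline. The gap was narrow (log2 difference 0.11, edgeR adjusted p = 0.915), and in TPM the arms overlapped, at 17.1 to 22.2 and 17.8 to 19.2 TPM. The share of all genes without overlap between the baselines is not given here, so nothing is drawn from the genes that do not overlap.

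Other genes of the same pathway were taken from lists of related subunits and partners. Beside their counts, 32.8% of all genes tested were called lower and 32.9% higher at ISO day 1. At LPS day 1 it was 33.0% lower and 33.2% higher. Of 46 other pore-forming potassium channel subunits, 32 could be tested; 19 fell and 2 rose at ISO day 1 (median log2 change -0.91, all genes -0.01), and 23 fell and 2 rose at LPS day 1 (median -1.03, all genes 0.00). Kcnv2, a silent partner subunit of voltage-gated channels, fell by 2.89 on the log2 scale at ISO day 1 and by 2.54 at LPS day 1. Kcnn2, a calcium-activated channel, fell by 1.58 at ISO day 1 and by 2.68 at LPS day 1. Kcnj8, a pore subunit of the ATP-sensitive channel, fell by 0.99 at LPS day 1, and its fall differed between agents (ISO minus LPS 0.60, adjusted p = 0.00483). At ISO day 7 edgeR called 0 of the 32, with 1 at an unadjusted p under 0.05 and 0 calls by DESeq2 or limma-voom. At LPS day 7 it called 2, both lower, among them Kcna7 (-0.57, adjusted p = 0.0214), where 3.13% of all genes were called lower.

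Of 18 accessory subunits 12 could be tested. At ISO day 1, 5 fell and 1 rose, with a median log2 change of -0.47, and at LPS day 1, 4 fell and 3 rose, with a median of -0.45. Over all genes tested, 33% were called lower and 33% higher at each day 1. Abcc9, the sulfonylurea receptor of ATP-sensitive channels, stood at 150.4 ± 5.99 CPM at ISO day 1 (SD, n = 3), against 416 ± 36.9 CPM at ISO baseline (SD, n = 4), a log2 change of -1.47, and at LPS day 1 it fell by 1.62. Abcc8, the related receptor, fell by 1.85 at ISO day 1 and by 1.67 at LPS day 1. Kcne4, an inhibitory partner of Kcnq1, rose by 2.29 on the log2 scale at LPS day 1 and also rose at ISO day 1, to 8.01 ± 1.43 CPM (SD, n = 3), against 1.99 ± 0.348 CPM at ISO baseline (SD, n = 4). Kcne1, the partner with which Kcnq1 forms the slow delayed rectifier, stood at 14.8 ± 5.75 CPM at LPS day 7, against 2.11 ± 0.461 CPM at LPS day 1 (SD, n = 4 each; log2 change 2.80).

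Among 7 trafficking partners, 3 rose and 2 fell at ISO day 1 and again at LPS day 1, with medians of 0.25 and 0.07. Cav3, the muscle caveolin, rose by 1.86 at ISO day 1 and 1.38 at LPS day 1, and the kinase Sgk1, which raises the surface level of several channels, rose by 2.17 at ISO day 1, more than after LPS (difference 1.11, adjusted p = 0.00126). Nedd4l, a ubiquitin ligase of ion channels, fell by 0.79 at ISO day 1 and by 0.85 at LPS day 1. Of 12 transcription factors linked to channel genes, 7 fell and 3 rose at ISO day 1 (median -0.43), and 5 fell and 5 rose at LPS day 1 (median -0.04). With 33% of all genes called lower and 33% higher at each day 1, no response of either list as a whole is drawn from these counts. Tbx3, a repressor that marks the conduction system, rose by 1.53 at ISO day 1, to 41.3 ± 3.42 CPM (SD, n = 3), against 14.3 ± 0.894 CPM at ISO baseline (SD, n = 4). Etv1, an activator of conduction genes, fell by 1.38 at ISO day 1 and 1.15 at LPS day 1.

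The differences between agents were clearest in Irx3, Klf15 and Nkx2-5. Irx3 rose by 0.82 at LPS day 1, to 93.3 ± 11.1 CPM, against 52.9 ± 4.64 CPM at LPS baseline (SD, n = 4 each), and differed by -1.42 (ISO minus LPS, adjusted p = 7.1e-08). Klf15, a Krüppel-like factor known in mice to control Kcnip2, stood at 30.6 ± 5.81 CPM at ISO day 1 (SD, n = 3), against 56.5 ± 6.95 CPM at ISO baseline (SD, n = 4; log2 change -0.89). At LPS day 1 it stood at 62.4 ± 7.13 CPM, against 52.1 ± 4.93 CPM at LPS baseline (SD, n = 4 each), a log2 change of 0.26 (adjusted p = 0.0426). Its change differed between agents (-1.15, adjusted p = 8.96e-06). Any link of Klf15 to the Kcnip2 level in these hearts was not tested. Nkx2-5, a cardiac homeobox factor, rose by 0.25 at ISO day 1 and fell by 0.52 at LPS day 1 (difference 0.77, adjusted p = 1.05e-06).

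How alike the 10 patterns were was described by the root mean square difference over the 6 group means of log2 CPM, each centred on its own mean. Kcnd2 and Kcnh2 were the closest members, at 0.078, with 5 other genes nearer to either. Kcnj5 and Kcnk3 were each other's nearest member at 0.180. Kcna5 had the most distant nearest member, Kcnd3 at 0.332, with 4806 genes nearer than that. Kcnj3 (Kcnip2 at 0.317) and Kcnq1 (Kcnj2 at 0.312) were almost as far from their nearest members, with 201 and 1907 genes nearer. Outside the list, the gene nearest to Kcnk3 was its overlapping antisense gene Gm9899 (0.062), followed by Perm1 (0.066) and Cytl1 (0.097). Nearest to Kcnip2 were Zc3h8 (0.049), Ppfibp2 (0.050) and Pnmal2 (0.056), and nearest to Kcnd2 were Tmem220 (0.059), Nalcn (0.064) and Ddo (0.068). Kcnh2 was nearest to Hnmt (0.039), Kcnq1 to Gm7694 (0.025), Kcnj3 to Tnfrsf19 (0.063), Kcnj5 to Sh3gl2 (0.075), Kcnj2 to Nhsl1 (0.038), Kcnd3 to Fbh1 (0.035) and Kcna5 to Casq1 (0.105).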

How the data were processed

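Gene-level quantification of 23 heart libraries in 6 labelled groups was used. Per the file headers, the authors deposited estimated counts per gene, TPM (counts divided by effective length and scaled to a common total) and another quantity, the effective length in bases. Among tools, bcl2fastq, DRAGEN, edgeR and limma are listed in the submitters' processing notes, with the build mm10. Neither the annotation release nor the strand setting is given in those sources.

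Identifiers were matched to GENCODE M21 (55141 of 55487). Estimated counts were rounded (9.5% of values were not whole) and tested with edgeR 4.0.16 in R 4.3.3: TMM, filterByExpr with a minimum count of 10, 1 model of 6 group means, glmQLFit and glmQLFTest, two-sided, Benjamini-Hochberg over 15732 genes, called under 0.05. SEs derive from the quasi-likelihood F value. Ratios were tested by exact permutation, two-sided (scipy 1.17.1). Alternatives were other scalings, DESeq2 1.42.0, limma 3.58.1 (voom, and log2 TPM with a pseudocount of 0.1 or 1), no count filter, groups fitted alone, a replicate block, length offsets, other baselines and leaving out each library. Pairs of LPS day 1 libraries were fitted alone after the data were seen. Depth (20910394 to 30368985 reads) covers counting error only.

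The 10 genes, the related lists, the markers and the tests were chosen with earlier results of these data known. All 10 are named in each comparison. Of each related list up to 3 genes per comparison are named, those called with a mean of at least 5 CPM and the smallest adjusted p, and some values of these genes in other comparisons are added. Some genes that this rule names are not reported here. All libraries of a group differed by more than sampling noise (chi-square over genes, divided by its degrees of freedom, 4.07 to 46.3), and the procedure was tested on simulated data.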

Additional observations from a re-analysis of the deposited data

Results flagged for a closer look

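For 5 genes the change from baseline at day 1 differed between ISO and LPS in a test of the difference itself. The differences, ISO minus LPS on the log2 scale, were 1.54 for Kcnk3 and 0.94 for Kcnj5, where the fall was smaller after ISO, and -1.03 for Kcnq1, -0.89 for Kcnh2 and -0.72 for Kcnd2, where it was larger. They are 5 of 20 such results looked at over both days. The Kcnh2 value rests on how its LPS day 1 libraries divide.

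Kcnh2 in ISO baseline replicate 4, at 123 CPM, lay far from the other 3 libraries of its group, at 136 to 137 CPM. It was the only one of 50 gene and group pairs looked at that was flagged, a lower rate than the about 1 in 20 that chance gives. In TPM the same library, at 45.7 TPM, lay within the range of the others, at 44.9 to 51.4 TPM.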

How the results depend on the processing

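Of 2070 recomputed log2 changes of the 10 genes, 1919 kept their direction and their side of the threshold, 57 were no longer called, 16 were newly called, 4 turned round and 74 changed sign while called in neither case. The 4 that turned round came with scaling to cardiomyocyte markers: Kcna5 at ISO day 1 (0.04), Kcnq1 at LPS day 1 (0.23), and Kcna5 (-0.39, adjusted p = 0.00417) and Kcnq1 (-0.28, adjusted p = 0.0361) at LPS day 7 against LPS day 1. That scaling left 6 genes called at LPS day 1. At ISO day 7 the count of 1 became 0 with library totals, with cardiomyocyte marker totals, when the groups were fitted alone, and with log2(TPM + 0.1) or log2(TPM + 1), where Kcna5 had adjusted p-values of 0.533, 0.615, 0.473, 0.617 and 0.618 in that order, and it was 0 to 1 without 1 library. At LPS day 7 it became 3 with the groups fitted alone and 0 with either TPM scale or with the ISO baseline in place of its own. Between the baselines DESeq2 called 1 gene. The causes were not tested.

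Library totals in place of TMM moved the median of all genes by 0.16 at LPS day 7. The Kcnh2 difference between agents at day 1 was also lost with limma-voom (adjusted p = 0.0529) and with the groups fitted alone (0.0601). On TPM, Kcna5 (adjusted p = 0.0668) and Kcnk3 (0.0599) were not called at ISO day 1. With estimated counts in place of TPM, the Kcnd2 to Kcnd3 ratio at day 7 changed sign, to -0.05 for ISO and 0.02 for LPS, as did the Kcnip2 ratio for LPS (0.07). Without 1 library the first of these ran from -0.04 to 0.11 and the last from -0.07 to 0.03.

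Replicate numbers do not pair the samples: correlations of same-numbered deviations ran from -0.12 to 0.08. With the replicate block, 10 genes were called at each day 1, 1 at each day 7, and 4 in place of 5 for the difference between agents at day 1, where Kcnh2 had an adjusted p of 0.0506. Counts of the other comparisons were as without it. Depth is lowest for Kcnd3, with 124 reads in its poorest library.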
